A study of Mus musculus with 8 samples.

Results

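The 4 mouse stearoyl-CoA desaturase genes, *Scd1*, *Scd2*, *Scd3* and *Scd4*, were examined in liver of *Agpat3* WT and *Agpat3* KO mice. Their probes were found through the transcript accession of each probe in a mouse RefSeq gene table, which gave 8 of 56605 probes without the controls, namely 1 for *Scd1*, 1 for *Scd2*, 4 for *Scd3* and 2 for *Scd4*. Total RNA of frozen liver from 4 WT and 4 KO male mice on a C57BL/6 background, all 10 weeks old, was hybridized to one-color Agilent arrays, with 1 array per mouse. AGPAT3 is an acyltransferase that places DHA into a precursor of phospholipids, and in the KO it was missing from the whole body, not from liver alone. Diet and litter were not given in the labels used here.

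SCD enzymes sit in the endoplasmic reticulum and set a double bond at the ninth carbon of saturated acyl-CoAs. They turn stearoyl-CoA into oleoyl-CoA and palmitoyl-CoA into palmitoleoyl-CoA, the monounsaturated fatty acids (MUFAs) of triglycerides, cholesterol esters and phospholipids. In mice *Scd1* is the main form of adult liver and of adipose tissue and is a classical target of SREBP1, the transcription factor of fatty acid synthesis, *Scd2* is best known from brain and from liver before weaning, *Scd3* from sebaceous and Harderian glands, and *Scd4* from heart.

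Signals from Feature Extraction were expressed as log2 relative to the 75th percentile of its array, so that a value of 0 is the brightness at that percentile and a difference of 1 is a doubling. Of the 8 *Scd* probes, 5 were well above background on all 8 arrays and were tested, and 3 were not on all arrays of either genotype. Between 29888 and 31892 probes per array were well above background, and no spot was saturated. All arrays lay on 1 slide with WT in row 1 and KO in row 2, and the effect of row cannot be separated from that of genotype, while mice of the same replicate number shared a column. The brighter *Agpat3* probe was between 5.65 and 5.88 in WT and between -0.58 and 0.02 in KO, as the labels say. The livers had bright hepatocyte markers, and the log2 of their summed signal (7 of 7 genes tested) was between 12.01 and 12.16 in WT and between 12.03 and 12.13 in KO.

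In KO liver *Scd1*, *Scd2* and 1 of the 4 *Scd3* probes rose, by close to 2-fold for *Scd1* and *Scd2* and by 2.59-fold for the *Scd3* probe, whereas the other bright *Scd3* probe and the bright *Scd4* probe were not called. Calls required more than a 1.5-fold change together with a limma adjusted p below 0.2 (Benjamini-Hochberg over 29069 tested probes). By this rule 3 of the 5 tested *Scd* probes were called higher and 0 lower, against 0.939% of all tested probes called higher and 0.726% called lower. The KO mice were all higher than the WT mice in 4 of the 5 *Scd* probes, which was the case for 3.69% of all tested probes. Hybridization of RNA from 1 *Scd* gene to a probe of another is possible among these related genes and was not tested, because the probe sequences were not analysed here. In whole liver, a change in RNA per cell and a change in the number of cells of a type cannot be told apart.

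*Scd1*, the main hepatic desaturase, was measured by probe A_52_P682382. Its log2 signal was 8.25, 7.59, 7.54 and 7.23 in WT replicates 1 to 4 and 8.61, 8.49, 8.75 and 8.64 in KO replicates 1 to 4. The WT mice were spread widely, with WT replicate 1 nearest to the KO mice, and the KO mice lay close together. The means were 7.65 ± 0.43 in WT and 8.62 ± 0.10 in KO (SD, n = 4 each). The log2 fold change was 0.97 (standard error 0.19, 95% confidence interval 0.52 to 1.41, limma adjusted p = 0.0900), which is 1.96-fold, and 0.612% of all tested probes had a larger increase. The exact permutation test over mice gave p = 0.0286 (two-sided), the smallest that 4 mice against 4 allow.

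*Scd2*, the form of brain and of young liver, had probe A_51_P129464. Its log2 signal was -0.45, 0.28, -0.38 and 0.05 in WT replicates 1 to 4 and 0.77, 0.71, 1.07 and 0.63 in KO replicates 1 to 4. The groups did not overlap, and the gap between the highest WT and the lowest KO mouse was 0.35. The means were -0.12 ± 0.35 and 0.80 ± 0.19 (SD, n = 4 each). This was an increase of 0.92 on the log2 scale (standard error 0.18, 95% confidence interval 0.51 to 1.33, limma adjusted p = 0.0836), or 1.89-fold (exact permutation test, two-sided, p = 0.0286).

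The 4 probes of *Scd3*, whose product prefers palmitoyl-CoA, gave different answers. For A_55_P2099594 the log2 signal was 2.08, 1.30, 1.21 and 0.66 in WT replicates 1 to 4 and 2.72, 2.44, 2.93 and 2.65 in KO replicates 1 to 4. Every KO mouse was higher than every WT mouse, and the log2 fold change was 1.37 (standard error 0.27, 95% confidence interval 0.76 to 1.98, limma adjusted p = 0.0841; exact permutation test, two-sided, p = 0.0286). For A_55_P2052759 it was -0.11, -0.23, -0.27 and -0.58 in WT and -0.17, -0.12, -0.02 and -0.24 in KO replicates 1 to 4. Here the groups overlapped, and the log2 fold change was 0.16 (standard error 0.11, 95% confidence interval -0.09 to 0.41, limma adjusted p = 0.578; exact permutation test, two-sided, p = 0.229). The change of the first probe exceeded that of the second by 1.21 on the log2 scale. The remaining probes, A_55_P2512897 and A_55_P2727843, were not well above background on any of the 8 arrays, with log2 signals between -6.78 and -6.21, and give no change. The response of *Scd3* thus rests on 1 probe.

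*Scd4*, known from heart, had 1 probe well above background on all arrays. Its log2 signal (A_55_P2538668) was 3.56, 3.84, 3.73 and 3.70 in WT replicates 1 to 4 and 3.85, 3.87, 3.88 and 3.94 in KO replicates 1 to 4. The KO mice were all above the WT mice, but only by 0.02 at the closest. The log2 fold change of 0.18 (standard error 0.07, 95% confidence interval 0.01 to 0.35, limma adjusted p = 0.350; exact permutation test, two-sided, p = 0.0286) was 1.13-fold and was not called. The other probe, A_55_P2011872, was well above background on 3 of 4 WT and 1 of 4 KO arrays, with log2 signals between -4.35 and -3.48 in WT and between -4.49 and -3.42 in KO, and was not tested.

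**Figure D1:**
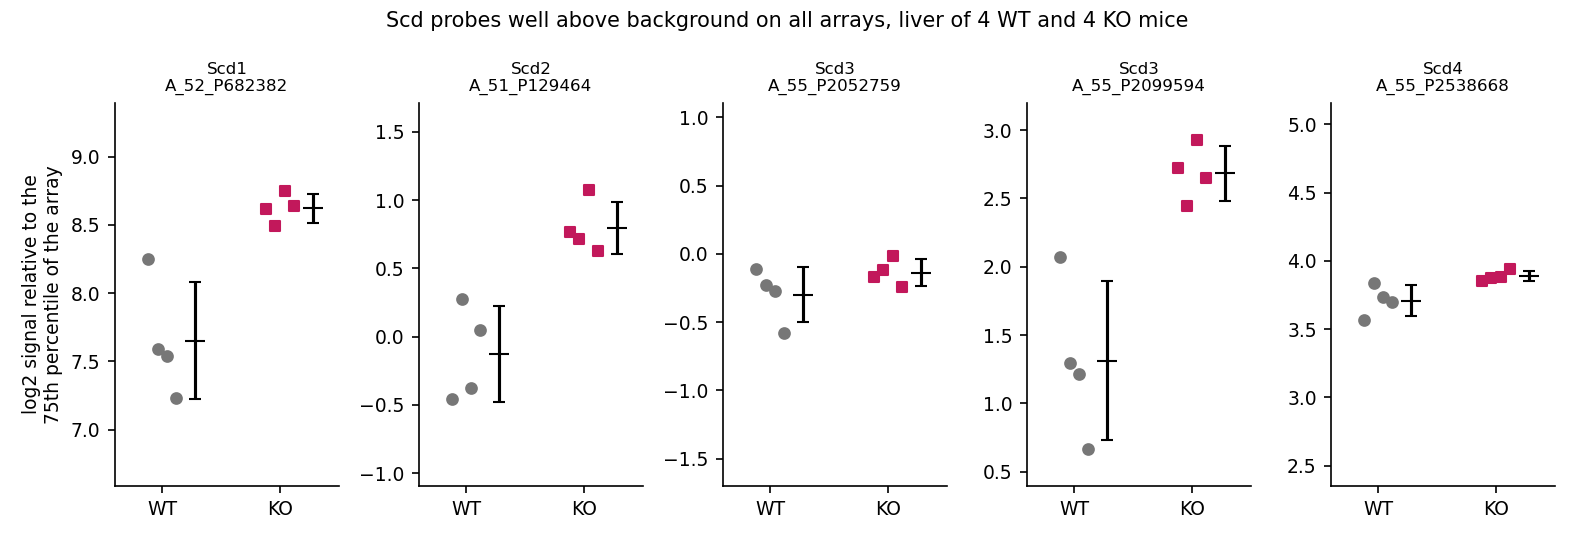
Log2 signal, with the 75th percentile of each array at 0, for the 5 *Scd* probes well above background on all arrays. Each point is 1 mouse (grey circles WT, magenta squares KO), the bars are mean and SD of 4 mice, and all panels span the same height. The KO mice lie above all WT mice for *Scd1*, *Scd2*, *Scd3* probe A_55_P2099594 and, by 0.02, *Scd4*, and overlap them for *Scd3* probe A_55_P2052759.

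The 3 calls depended on the threshold and on single mice. At an adjusted p under 0.05 none of them was called, and without WT replicate 3 all were lost (limma adjusted p = 0.229 for *Scd1*, 0.209 for *Scd2* and 0.212 for the *Scd3* probe). That of *Scd1* was also lost without WT replicate 2 (limma adjusted p = 0.202). With each mouse left out in turn the log2 fold change lay between 0.83 and 1.17 for *Scd1*, between 0.81 and 1.06 for *Scd2* and between 1.16 and 1.63 for A_55_P2099594. With the slide column as a block the 3 probes stayed called (limma adjusted p = 0.133 for *Scd1*, 0.154 for *Scd2* and 0.119 for the *Scd3* probe). For *Scd1* the highest value was that without WT replicate 1, where the adjusted p was 0.0181 by limma.

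**Figure D2:**
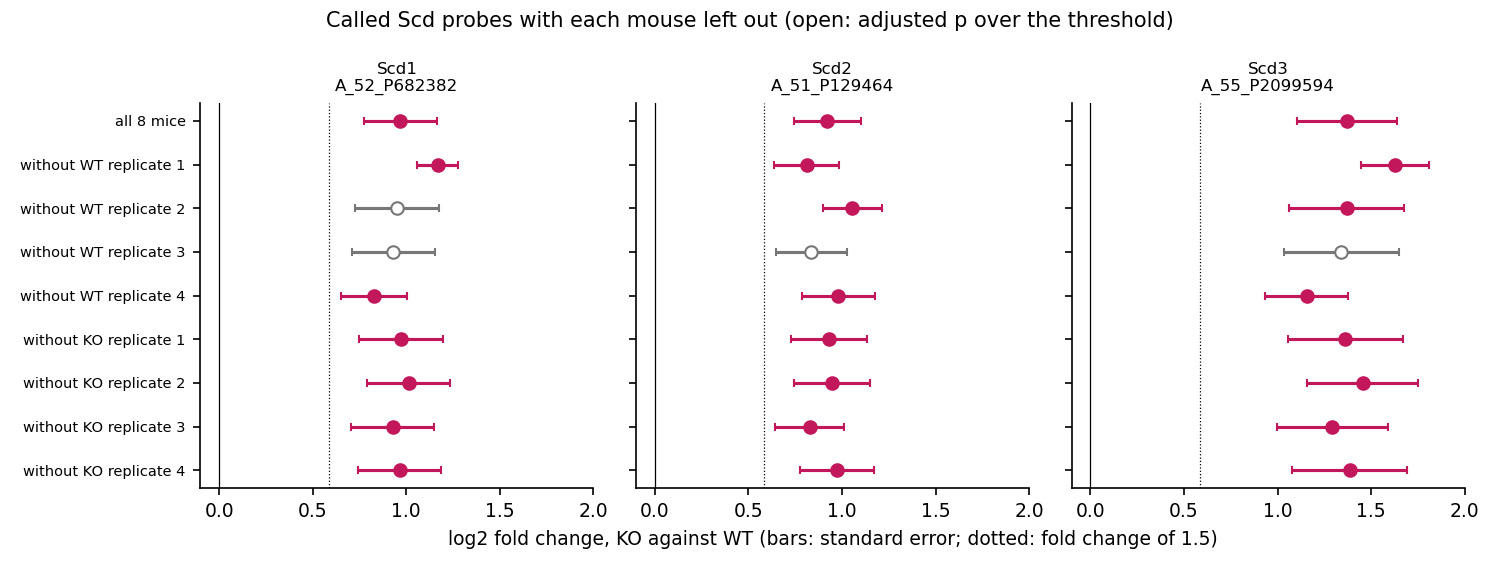
Log2 fold change, KO against WT, of the 3 called *Scd* probes with all mice and with each mouse left out. Bars are standard errors from limma, the dotted line is a fold change of 1.5, and open symbols mark an adjusted p of 0.2 or more. All values lie to the right of the dotted line, and the calls of all 3 are lost without WT replicate 3.

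Mouse by mouse, *Scd1* and the *Scd3* probe A_55_P2099594 had closely similar profiles. Both ranked the WT mice alike, with replicate 1 highest, then 2, 3 and 4, and so did the second *Scd3* probe A_55_P2052759. After each probe was centred on its mean, *Scd1* and A_55_P2099594 differed by 0.24 (root mean square on the log2 scale over 8 mice), and 6 of the 13554 other genes compared were closer to *Scd1*. Both profiles contain the step from WT to KO for which the probes were called, so this rank follows largely from it. With each genotype centred on its own mean they differed by 0.12, and genes named below were closer to *Scd1* (0.08 to 0.10). *Scd2* had another order in WT, with WT replicate 1 lowest and WT replicate 2 highest, and its difference from *Scd1* was 0.43. In KO the highest mouse was KO replicate 3 for *Scd1*, *Scd2* and both *Scd3* probes, and KO replicate 4 for *Scd4*. These likenesses are descriptions of probes read on the same 8 arrays, with 4 mice of each genotype.

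**Figure D3:**
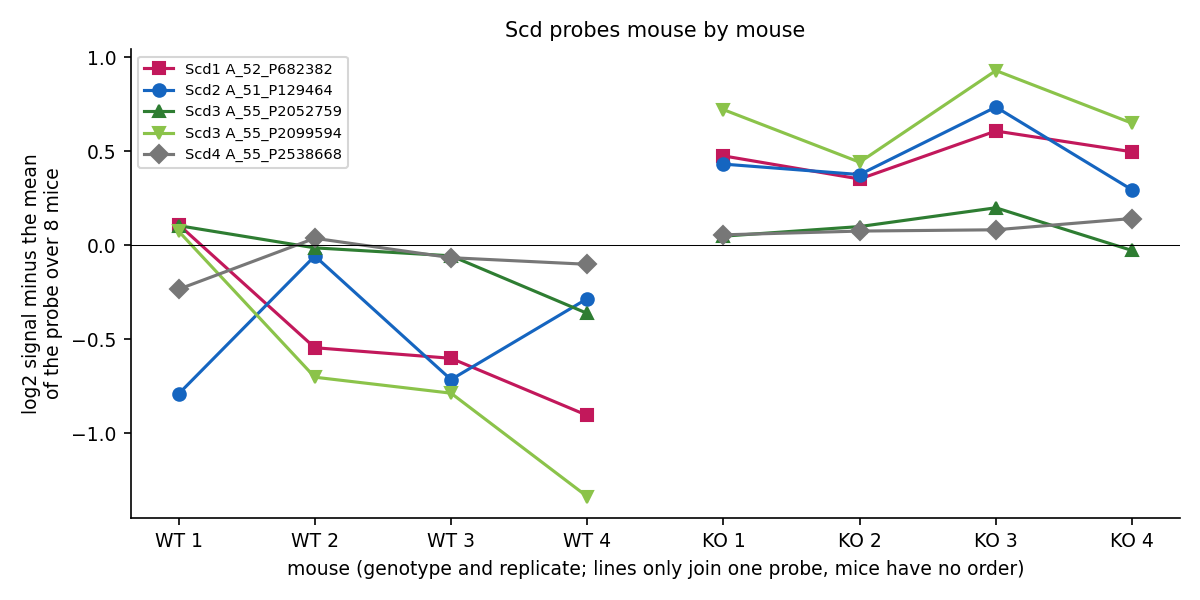
Log2 signal of the 5 tested *Scd* probes in each mouse, minus the mean of the probe over the 8 mice. Lines join the values of 1 probe within a genotype, and the mice have no order. *Scd1* and the *Scd3* probe A_55_P2099594 run together, *Scd2* is lowest in WT replicate 1, where these are highest among WT, and *Scd4* and A_55_P2052759 stay nearer to 0.

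The change of *Scd1* was compared with that of 5 other genes as a difference within each mouse, tested by the exact permutation test (two-sided) and adjusted over the 5. The change of *Scd1* minus that of *Scd2* was 0.05 (standard error 0.35, adjusted p = 0.971, exact permutation test), and with each mouse left out it lay between -0.15 and 0.36, so neither was shown to respond more. Against the *Scd3* probe A_55_P2099594 the difference was -0.40 (standard error 0.10), with every KO mouse below every WT mouse (exact permutation p = 0.0286, adjusted 0.0714). For the other bright *Scd3* probe, A_55_P2052759, which was not among the 5, the difference was 0.81, with every KO mouse above every WT mouse. The sign of the difference thus depended on the *Scd3* probe. Against *Fasn*, fatty acid synthase, which makes the palmitate that is then elongated and desaturated, it was -0.72 (standard error 0.31, exact permutation p = 0.0286, adjusted 0.0714), and -0.41 without WT replicate 1. Against *Fads2*, which desaturates polyunsaturated fatty acids, it was -0.01 (standard error 0.29, adjusted p = 0.971, exact permutation test). Against *Elovl6*, which elongates palmitoyl-CoA to stearoyl-CoA, the substrate of SCD1, it was 0.10 (standard error 0.30, adjusted p = 0.971, exact permutation test). None of the 5 differences passed 0.05 after adjustment.

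Of 18 genes for fatty acid and MUFA synthesis 8 were called higher and 0 lower, against 1.01% of 14067 genes called higher and 0.754% called lower (each gene by its brightest probe), and the median log2 fold change was 0.76, against -0.03 over all tested genes. The called genes were *Thrsp* (2.00), *Fasn* (1.69), *Acacb* (1.31), *Acly* (1.03), *Elovl5* (1.02), *Acss2* (1.02), *Me1* (0.85) and *Mid1ip1* (0.66). With each mouse left out in turn 6 of these stayed called in all 8 fits, while *Acss2* was called in 4 and *Me1* in 2. *Acly*, *Acss2* and *Me1* supply acetyl-CoA and NADPH, and *Thrsp* and *Mid1ip1* act on acetyl-CoA carboxylase. The study counts *Elovl5*, which is in this list, among the enzymes that make polyunsaturated fatty acids. *Elovl6*, the step before SCD1, reached 0.86 (standard error 0.27, limma adjusted p = 0.236) and was not called. *Acaca*, the main carboxylase for synthesis, had 0.57 (standard error 0.12, limma adjusted p = 0.106), under the fold change of 1.5. *Elovl3*, an elongase of saturated and monounsaturated chains, had -0.98 (standard error 0.35, limma adjusted p = 0.281), with overlapping groups.

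SCD enzymes take electrons from NADH or NADPH through cytochrome b5 reductase and cytochrome b5. No gene of this chain was called by limma among 5 tested of 6 (1 at an unadjusted p under 0.05), and the median log2 fold change was 0.07. The share of all tested genes with an unadjusted p under 0.05 was not counted, here or for the lists below. It was not small, since the *Scd4* probe A_55_P2538668 (unadjusted p = 0.0401, limma) ranked 3333 by p among 29069 tested probes. *Cyb5a*, the microsomal cytochrome b5, had -0.11 (standard error 0.09, limma adjusted p = 0.668), and *Cyb5r3*, the main reductase, had 0.25 (standard error 0.08, limma adjusted p = 0.260). All KO mice were above the WT mice for *Cyb5r3* and for *Cyb5r4* (0.07), as in 3.69% of all tested probes. *Cyb5b*, the mitochondrial form, had 0.27 (standard error 0.12, limma adjusted p = 0.380).

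Among 6 other fatty acyl desaturases 2 were called higher, *Fads2* (0.97) and *Fads1* (0.74), which make polyunsaturated fatty acids. *Fads3* (0.00), *Fads6* (0.01), *Degs1* (0.07) and *Degs2* (-0.35), the last of which act on sphingolipids, were not called, and the median of the list was 0.04. Of 8 genes in pathways that esterify fatty acids, MUFAs included, only *Gpam*, the first acyltransferase of glycerolipid synthesis, was called (1.07). *Dgat2*, which completes triglycerides with newly made fatty acids, had 0.03, and *Soat2*, which makes cholesterol esters, had 0.09 (limma adjusted p = 0.939 and 0.824).

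Of 18 genes that regulate *Scd1* in liver, 1 was called, *Srebf1*, which encodes SREBP1, and 5 had an unadjusted p under 0.05. Many of all tested probes reached that level too. The log2 signal of *Srebf1* was 6.08, 6.72, 6.63 and 6.14 in WT replicates 1 to 4 and 6.89, 6.87, 7.42 and 7.47 in KO replicates 1 to 4, which is a rise of 0.77 on the log2 scale (standard error 0.20, limma adjusted p = 0.168). The call was lost in each of the 8 fits with 1 mouse left out (limma adjusted p between 0.204 and 0.284). WT replicate 1, the highest of the WT mice for *Scd1*, was the lowest of them for *Srebf1*. It was also the lowest WT mouse for *Scd2*, *Fasn*, *Acss2*, *Fads1*, *Fads2* and *Gpam*, and the highest for *Acly*, *Acacb*, *Elovl5* and *Me1*. For *Thrsp* and *Mid1ip1* it was neither. The arrays do not measure SREBP1 protein in the nucleus, and its part in the changes of the *Scd* genes was not tested. *Insig1*, which retains SREBPs in the endoplasmic reticulum, had 1.12 (standard error 0.33, limma adjusted p = 0.207) and was not called. Its KO mice were all above the WT mice, as in 3.69% of all tested probes. The other genes with an unadjusted p under 0.05 were *Mbtps2*, a protease that activates SREBPs (-0.19), *Rxra*, the partner of LXR (-0.16), and *Sp1*, a general transcription factor (-0.19), with limma adjusted p = 0.335, 0.359 and 0.271. In each all KO mice were below the WT mice, as they were for *Mbtps1* (-0.12, limma adjusted p = 0.473). The share of all tested probes with every KO mouse below every WT mouse was not counted. *Nr1h3*, which encodes LXRα, *Mlxipl*, which encodes ChREBP, and *Ppara* had 0.04, 0.14 and -0.09, and the median of the list was -0.07, or 0.03 with the mean of each gene's probes.

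**Figure D4:**
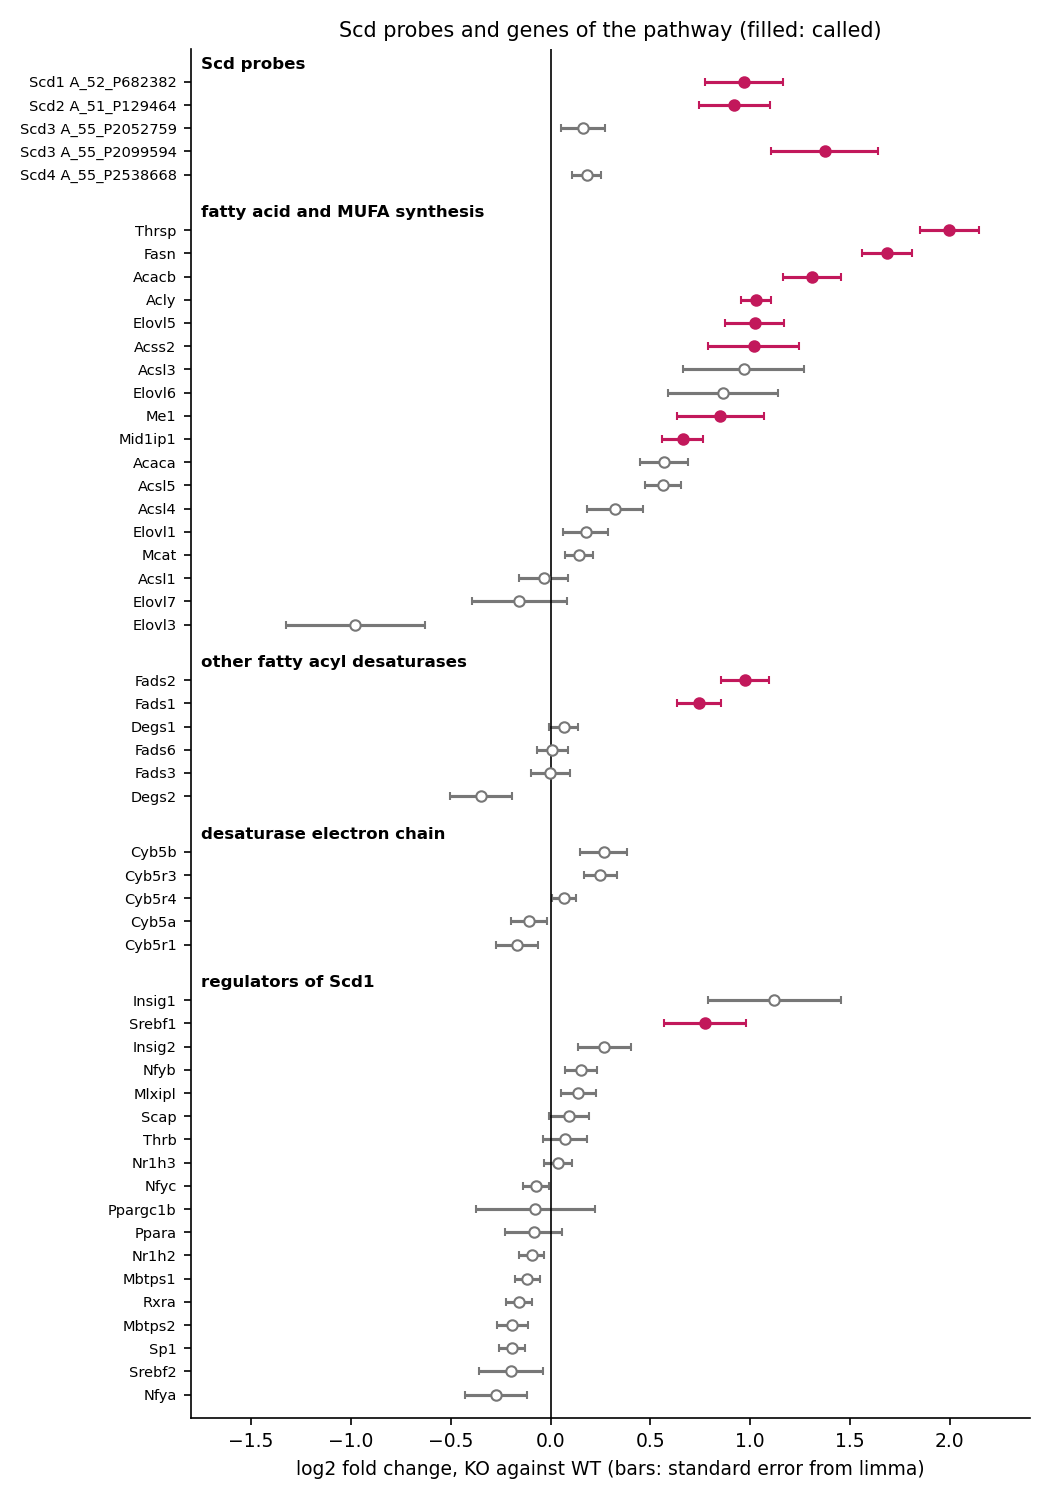
Log2 fold change, KO against WT, of the tested *Scd* probes and of the tested genes of 4 lists, each gene by its brightest probe. Bars are standard errors from limma, and filled symbols are called probes. Filled symbols lie in fatty acid synthesis and among the desaturases *Fads1* and *Fads2*, while the electron chain has none and the regulators have *Srebf1*.

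*Scd1* is induced by feeding and insulin, and genes of feeding and fasting were therefore read in each mouse. Their list mixes genes that feeding raises with genes that fasting raises, so its median gives no direction of feeding state. Between genotypes 0 of 11 genes of this list were called by limma (2 at an unadjusted p under 0.05), with a median log2 fold change of 0.38. The 2 genes were *Ppargc1a*, a coactivator of gluconeogenesis (0.60, limma adjusted p = 0.236), and *Pdk4*, a kinase that is induced by fasting (0.73, limma adjusted p = 0.260), and their groups overlapped. *Pck1*, a gluconeogenic enzyme repressed by insulin, was between 7.24 and 8.38 in WT and between 7.49 and 8.06 in KO. *G6pc*, another gluconeogenic enzyme, was between 5.30 and 7.01 in WT and between 5.69 and 7.52 in KO. The part of feeding state in the changes of the *Scd* genes was not tested.

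*Scd2* is expressed in many cells other than hepatocytes, and *Scd1* in adipocytes. The defining adipocyte genes *Adipoq*, *Plin1*, *Retn* and *Cidea* did not pass the background filter in any of the 8 mice, and *Cfd*, which encodes adipsin, passed it in 4 of 8 and was not tested. The 2 adipocyte genes tested of 7, *Lep* and *Fabp4*, were not called, and the log2 of their summed signal was between 2.24 and 2.75 in WT and between 2.33 and 2.66 in KO. For stellate cells (7 of 7 tested, 0 called) the summed signal was between 6.51 and 6.85 in WT and between 6.49 and 6.61 in KO, and for sinusoidal endothelial cells (6 of 6 tested, 0 called) between 6.31 and 6.38 and between 6.19 and 6.44. In each of these lists at most 1 gene had an unadjusted p under 0.05 by limma. For Kupffer cells and leukocytes (7 of 7 tested) the summed signal was between 5.97 and 6.80 in WT and between 5.70 and 6.43 in KO, and *Marco*, a scavenger receptor of macrophages, was called lower (-1.22, limma adjusted p = 0.0981), a call lost without WT replicate 3 or KO replicate 2. Cholangiocyte markers (3 of 5 tested) had between 2.44 and 3.26 in WT and between 2.46 and 3.00 in KO, and pancreatic acinar markers (4 of 7 tested) between 3.40 and 3.52 and between 3.25 and 3.55, with 0 called in either list by limma (1 and 0 at an unadjusted p under 0.05). None of these lists had a higher summed signal in all KO mice. A sum follows the brightest genes of a list, such as *Dcn* for stellate cells (mean 6.46 in WT) and *Fabp4* for adipocytes (2.35). Dimmer genes hardly enter it, such as the stellate genes *Lrat* (0.50, limma adjusted p = 0.272) and *Col1a1* (-0.95, limma adjusted p = 0.417). *Lrat* was the 1 stellate gene of 7 with a positive change.

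The genes with the profile most like that of *Scd1* over the 8 mice, by the root mean square difference of centred log2 signals, were *Pklr* (0.16), *Elovl5* (0.20), *Me1* (0.21), *Paqr9* (0.21) and *Fabp2* (0.23), against a median of 0.59 over 13554 genes. *Pklr* encodes the pyruvate kinase of liver, and its log2 signal was 0.87, 0.27, 0.20 and 0.13 in WT replicates 1 to 4 and between 1.03 and 1.34 in KO. The genes closest to *Scd2* were *3110045C21Rik* (0.11), *Pmvk* (0.13), *Zfand4* (0.17), *Pde4d* (0.17) and *Gm29856* (0.18), of which *Pmvk* is an enzyme of the mevalonate pathway. All 10 genes were called higher, which follows largely from their choice, since the profiles contain the step from WT to KO, and the lists share no gene. With each genotype centred on its own mean, the genes most like *Scd1* were *Slc12a2* (0.08), *Zbtb32* (0.09), *Xrcc2* (0.10), *Golt1b* (0.10) and *Dcun1d3* (0.10) of 11666, and none of these was called between genotypes. Genes that varied little within genotype compared with *Scd1* were left out here. *Scd1* varied more in WT (SD 0.43) than in KO (0.10), so the WT mice weigh more. *Zbtb32* (between -3.54 and -2.29) and *Xrcc2* (between -3.16 and -2.45) were dim.

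The 4 genes lie side by side on chromosome 19 in the order *Scd3*, *Scd2*, *Scd4*, *Scd1*, with no other protein-coding gene between them. *Scd4*, whose 1 tested probe was not called, thus lies between 2 genes that rose. The nearest tested gene outside the cluster, *Bloc1s2*, differed by -0.01 on the log2 scale (standard error 0.07, limma adjusted p = 0.977). For *Scd3* and *Scd4*, the members of the cluster with an entry in the promoter table used, the 250 bases before the start are shown from RefSeq (GRCm38.p6, forward strand, chr19:44203038-44203287 for *Scd3* and chr19:44333076-44333325 for *Scd4*), with capitals for the 3 stretches of 7 or more bases that a global alignment placed opposite each other without a mismatch.
Scd3: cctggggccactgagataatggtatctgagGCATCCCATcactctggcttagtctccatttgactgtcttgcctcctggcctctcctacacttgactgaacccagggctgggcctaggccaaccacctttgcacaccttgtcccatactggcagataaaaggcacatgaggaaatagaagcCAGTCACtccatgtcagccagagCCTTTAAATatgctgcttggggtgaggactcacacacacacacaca
Scd4: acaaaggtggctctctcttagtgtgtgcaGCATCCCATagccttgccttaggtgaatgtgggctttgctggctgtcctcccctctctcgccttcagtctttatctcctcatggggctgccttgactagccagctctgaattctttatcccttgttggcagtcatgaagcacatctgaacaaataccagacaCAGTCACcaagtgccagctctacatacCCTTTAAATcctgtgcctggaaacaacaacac
The alignment held 154 identical bases, 61.6% of each window. Neither window held CCAAT (in 33.8% of 32851 promoter windows of this length), GGGCGG (32.7%), CACGTG (6.02%), TATAAA (12.4%) or TCACNCCAC, a form of the sterol regulatory element (1.05%), on either strand.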

How the data were processed

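The authors deposited, for each array, the intensity of every spot from Agilent Feature Extraction 10.7.1.1, background-corrected within the array, and 1 table of log2 values, which was checked to match log2 intensity scaled to the 75th percentile of its array, with a median difference of at most 0.00848. Control spots were left out, and each array was scaled to the 75th percentile of its probe means, outlier spots included. The log2 values of the spots of a probe were then averaged without outlier spots. A probe was tested if the scanner software marked it well above background in every mouse of WT, of KO or of both (29069 of 56605), with limma 3.58.1 (R 4.3.3, lmFit and eBayes). Arrays have no sequencing depth, and their number limits the precision. The local background was between 27 and 32 intensity units. Replicates are separate mice in the labels. Probes were named through RefSeq accessions (32994 matched), a gene was read from its brightest tested probe, and the build in the scanner files (mm9) differs from that of the RefSeq tables. The fit was also run on simulated data with independent noise and changes larger than those of the *Scd* probes. That run therefore says little about calls like theirs. The thresholds take their numbers from a figure legend of the study, which does not say that its p was adjusted, as it was here.

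The members, the gene lists (written from general knowledge) and the tests were chosen with earlier results of these data known. The text names all *Scd* probes, called and described genes of the lists, *Agpat3*, and the 5 genes nearest in profile to *Scd1* and *Scd2*. *Pck1*, *G6pc*, *Ppargc1a*, *Pdk4*, *Cyb5r4*, *Mbtps1*, *Bloc1s2*, *Dcn*, *Lrat*, *Col1a1* and the order of mice were singled out after their values were seen. The alternatives were normexp, quantile and median scaling, the deposited log2 values, other filters, outlier spots kept, eBayes with trend and robust options, the replicate number as a block, omission of single arrays, other thresholds, an unpaired t-test (named in the study for other measurements, not for the arrays), and averaging a gene's probes. The values of 1 gene of the feeding list are not reported here.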

Additional observations from a re-analysis of the deposited data

How the results depend on the processing

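The log2 fold changes of all 5 tested *Scd* probes stayed above 0 under all 10 other processing settings and models and with each array left out. Without a filter on dim probes, where 56605 probes were tested, the calls of *Scd1* (0.97), *Scd2* (0.92) and the *Scd3* probe A_55_P2099594 (1.37) were lost, with limma adjusted p of 0.219, 0.211 and 0.211, and the number of *Scd* probes called was 0, as at an adjusted p under 0.05. With each array left out the log2 fold change was 0.83 to 1.17 for *Scd1*, 0.81 to 1.06 for *Scd2*, 1.16 to 1.63 for A_55_P2099594, 0.07 to 0.22 for A_55_P2052759 and 0.13 to 0.22 for *Scd4*, and the number of *Scd* probes called was 0 to 3.

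Probes called higher and lower (273 and 211 in all) were 180 and 65 under normexp, 123 and 132 without a filter, 166 and 104 by an unpaired t-test, 82 and 35 at an adjusted p under 0.05, 555 and 635 with no minimum fold change, 537 and 451 at an unadjusted p under 0.2, and 153 to 334 and 98 to 275 with each array left out. In the gene lists the unpaired t-test called 6 genes of fatty acid synthesis, 2 other desaturases, 1 esterification gene, 1 Kupffer cell and leukocyte marker and 0 in each other list, so that the call of *Srebf1* was lost. Where each probe had to pass the background filter in all 8 mice, 126 were lower. Normexp used the median spot signal, since no mean spot signal was in the files used here. Averaging a gene's probes turned the median of the regulators from -0.07 to 0.03, that of the esterification genes from -0.01 to 0.02 and that of the hepatocyte markers from -0.01 to 0.01.

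The replicate number was also the slide column. The deviations of mice with the same number correlated at 0.33, -0.11, 0.10 and 0.32, so that 1 of 4 pairs was not over 0.1 and the numbers were not taken as pairs of mice. With a replicate block, which is also a block for the column, 327 probes were higher and 265 lower, and the same 3 *Scd* probes were called (limma adjusted p = 0.133 for *Scd1*, 0.154 for *Scd2* and 0.119 for A_55_P2099594).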
